A study of Mus musculus with 6 samples.

Results

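Col14a1+ fibroblasts are the stromal cells of the developing lung that express the collagen XIV gene, and they were followed here from P3 to P14 in mice raised in room air or in high oxygen. The population was taken as all cells that the authors' deposited annotation assigns to the cell type of that name, which gave 2600 of 61839 cells, or 4.20% of all cells and 11.8% of the 21985 stromal cells. The study placed newborn C57BL/6 mice in 85% O2 (hyperoxia) or 21% O2 (normoxia) from birth and dissociated whole lungs at P3, P7 or P14, with 6 mice in each of the 6 groups. Pups were randomized at birth before their cages were assigned to an oxygen level, and dams were rotated between the levels. The study states that the sexes were unequally distributed at P3 and P7 and equally at P14. Sex was not part of any test here. Cells of single mice were marked with lipid-anchored DNA barcodes (MULTI-seq), mixed into 5 pools with 3 normoxic and 3 hyperoxic mice of each age they held, and read in 6 droplet libraries. The P3 mice came from the P3 pool and the P3_P7 pool, the P7 mice from the P7 pool and the P3_P7 pool, and the P14 mice from P14 pool 1 and P14 pool 2. The groups held 491 and 532 Col14a1+ fibroblasts (normoxia and hyperoxia) at P3, 423 and 412 at P7, and 363 and 379 at P14.

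Fibroblasts make and remodel the matrix that gives the lung its tensile strength and recoil. Fibroblasts marked by Col14a1, decorin, Pi16 and Ly6a are known to lie mainly in the adventitial sheaths of airways and large vessels, whereas Col13a1+ fibroblasts lie in the alveolar walls. The first weeks after birth in mice are the time of alveolarization, and long exposure to high oxygen in this window is used as a model of bronchopulmonary dysplasia, the chronic lung disease of preterm infants. Excess oxygen raises reactive oxygen species, which damage DNA and proteins. The p53 pathway responds to DNA damage by arrest of the cell cycle, repair or cell death, and the NRF2 pathway responds to oxidants with enzymes that use glutathione and thioredoxin.

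Expression was counted as UMIs, that is, as distinct mRNA molecules, and was summed over the Col14a1+ fibroblasts of each mouse. Sums of 35 mice entered the tests, with 32 to 160 cells and 211172 to 1598308 UMIs each. P7 hyperoxia mouse 5, which had the fewest cells of all mice (125), had 4 Col14a1+ fibroblasts and was left out, so that P7 hyperoxia had 5 mice. Cells were not equally deep: by mouse, the median UMI count per cell was 5459.5 to 6091 in normoxia and 7586 to 9861.5 in hyperoxia at P14, and it was 3890 to 11598 over the P3 mice, which differed by pool. Of 2599 distinct cell barcodes, 1 occurred in more than 1 library, and for 2530 cells (97.3%) the most abundant sample barcode was that of the mouse to which the cell was assigned. In what follows, levels are CPM, each gene's UMIs relative to the total of that mouse's Col14a1+ fibroblasts, 3 values in a row are the lowest, median and highest mouse of a group, and log2 fold changes are given ± SE. A gene was called when its adjusted p in edgeR's quasi-likelihood test was under 0.05 and a UMI was found in at least 10% of the cells of 1 of the groups compared.

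The cluster matched its label in its leading markers. Col14a1 (chromosome 15, 55307750 to 55520803, mm10) averaged 1062 ± 267 CPM (SD, n = 35 mice) and was found in 87.7% of the cells, and Dcn, the gene of the small proteoglycan decorin (chromosome 10, 97479609 to 97518143), averaged 3836 ± 1416 CPM and was found in 77.0%. Both were at their highest here among the 33 cell types that could be summed by mouse. Mesothelial cells, which line the lung surface, came next for both, with 616 and 1521 CPM. Pi16, a peptidase inhibitor gene (chromosome 17, 29317680 to 29330593), averaged 111 ± 80.1 CPM and was found in 21% of the cells, and neutrophils (Neut 1) had a higher mean, 140 CPM. Ly6a, the gene of the surface protein Sca-1 (chromosome 15, 74994877 to 74998031), averaged 180 ± 121 CPM in 19% of the cells and ranked 7th, behind 4 endothelial types (aerocytes, with 1438 ± 339 CPM, other capillary cells, arteries and veins), ILC2 and a group of CD4 T cells. Thus Col14a1 and Dcn were found in most cells of the cluster, while Pi16 and Ly6a were found in a minority of its cells and were not particular to it. As these genes took part in the clustering, these levels describe the cluster and are not tested.

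**Figure D1:**
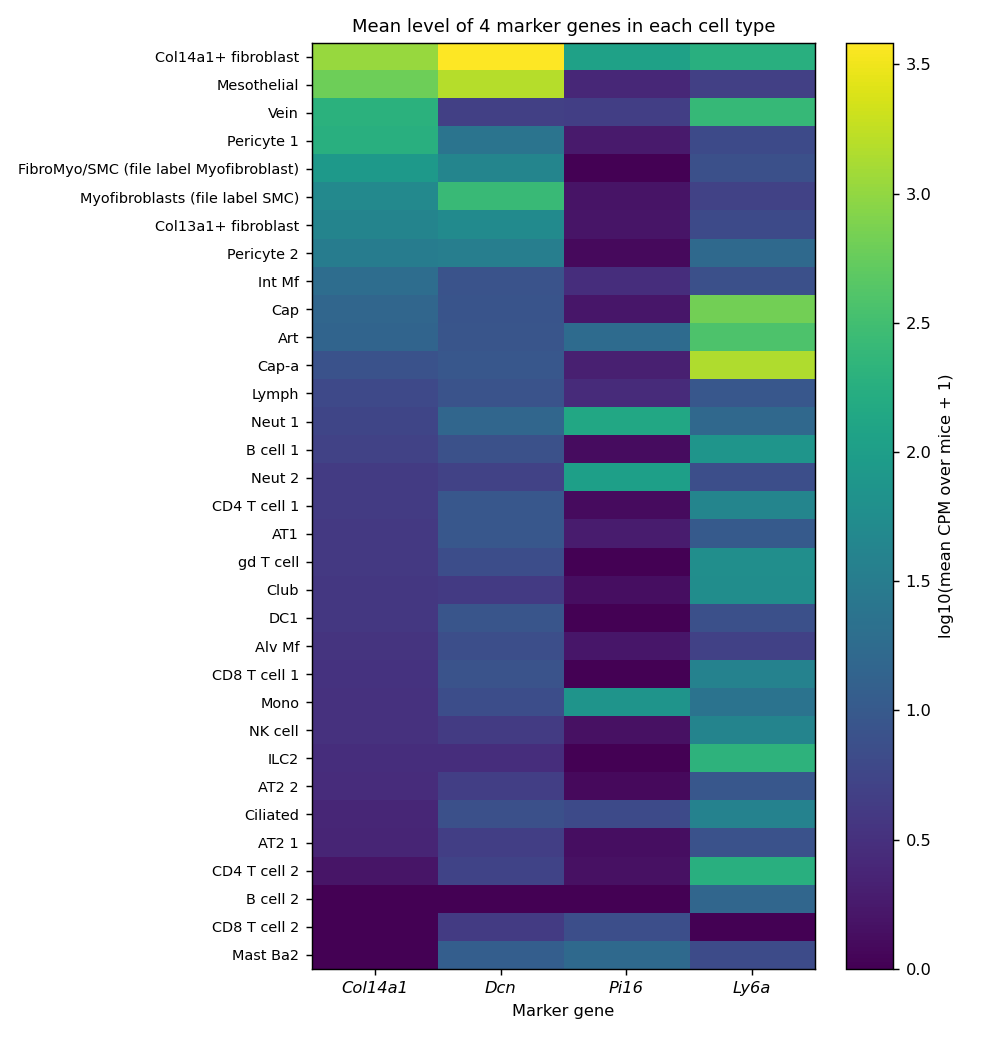
Mean level of the 4 marker genes in 33 cell types, as the log10 of the mean CPM over mice + 1 (colour), with cell types in rows ordered by Col14a1. Col14a1+ fibroblasts were at the top for Col14a1 (1062 CPM) and Dcn (3836 CPM), mesothelial cells came second for both, and Ly6a was highest in aerocytes (Cap-a, 1438 CPM).

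Markers of neighbouring cell types were below the levels of those types, but not absent. The mesothelial genes Msln and Upk3b were at 4.37 and 1.01 CPM in Col14a1+ fibroblasts, against 5956 CPM of Msln in mesothelial cells. Col13a1 was at 81.0 CPM (468 CPM in Col13a1+ fibroblasts), and Acta2, the smooth muscle actin gene, at 610 CPM, against 14756 CPM in the highest type, the cells labelled Myofibroblast in the annotation, whose match to the study's cluster of fibromyocytes and smooth muscle cells was inferred from markers and is not certain. The 8 markers of Col13a1+ fibroblasts summed to group medians of 1058 to 1423 CPM, with up to 2458 CPM in a hyperoxic P14 mouse, and 7 epithelial markers to 1253 to 1683 CPM, with up to 7036 CPM in a hyperoxic P3 mouse. The summed level of 6 smooth muscle markers changed with age and oxygen. It was 900, 1517 and 1977 CPM in normoxia at P3 and 145, 257 and 417 CPM at P14, and in hyperoxia at P14 it was 492, 645 and 1224 CPM. The sum of 6 myofibroblast markers was 433, 570 and 691 CPM in normoxia and 268, 307 and 352 CPM in hyperoxia at P14, lower in every hyperoxic mouse. Tgfbi, which is among them, made up much of this sum in normoxia, and much of the fall was its own (levels given below). The part of these cell types in the results below was not tested.

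Col14a1+ fibroblasts made up a shrinking share of the lung cells of normoxic mice. They were 4.74% ± 1.11 of the cells of a mouse at P3 (SD, n = 6), 4.20% ± 1.52 at P7 and 2.71% ± 0.40 on P14. This fall of 2.03 percentage points over the whole period exceeded the variation among mice (two-sided exact permutation test, p = 0.00216, the smallest it allows, adjusted p = 0.0232 over 204 tests of all cell types), and the later step, P7 to P14, did not (fell by 1.49 points, exact permutation adjusted p = 0.144), although edgeR on cell numbers called it (log2 ratio -0.63, adjusted p = 0.0375). No pool held both P14 and younger mice, so age and pool cannot be told apart here. In hyperoxia the shares were 5.26% ± 1.0, 4.37% ± 1.05 (n = 6) and 4.13% ± 0.79, and the difference between P14 and P3, -1.13 points, did not pass (exact permutation adjusted p = 0.195).

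At P14 the share was 2.29%, 2.67% and 3.37% in normoxia and 2.94%, 4.19% and 5.08% in hyperoxia (lowest, median and highest mouse). The 2 groups overlapped only between the highest normoxic and the lowest hyperoxic mice, and the mean was 1.42 points higher in hyperoxia (exact permutation p = 0.00433, adjusted p = 0.0340 over 102 tests). With the labels permuted only within pools, the adjusted p was 0.06, and edgeR on cell numbers gave a log2 ratio of 0.61 (adjusted p = 0.0541), so neither alternative made the call. Taken as a share of stromal and mesothelial cells together, the values were 8.77% ± 1.24 in normoxia and 11.2% ± 1.99 in hyperoxia. This difference of 2.45 points did not pass (exact permutation adjusted p = 0.0852). A share depends on all other cells of the suspension, so a gain of Col14a1+ fibroblasts and a loss of other cells cannot be told apart. At P3 and P7 the differences were 0.518 and 0.168 points (exact permutation adjusted p = 0.652 and 0.897).

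**Figure D2:**
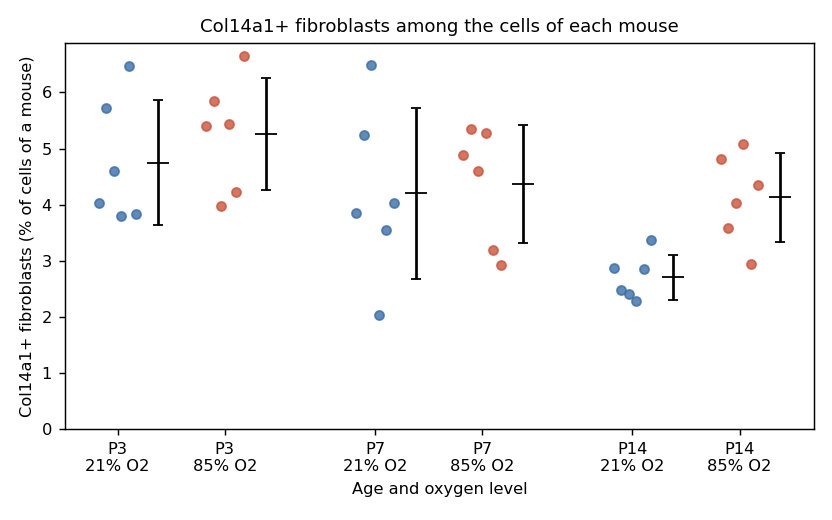
Col14a1+ fibroblasts as a percentage of all cells of each mouse (points, 6 mice per group), by age and oxygen level, with the mean ± SD at the right of each group. Normoxic mice fell from 4.74% at P3 to 2.71% at P14, while hyperoxic mice at P14 averaged 4.13%.

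Many genes differed between ages in normoxia. As no pool held P14 mice with younger ones, age and pool cannot be told apart in the comparisons with P14. The sexes were also unequally distributed at the younger ages. Between P3 and P14, 2887 of 8002 genes tested were called (36.1%), 1453 higher (18.2%) and 1434 lower (17.9%) at P14. From P3 to P7, 397 genes were called (4.96%), 205 higher (2.56%) and 192 lower (2.4%), and from P7 to P14, 1625 (20.3%). P3 and P7 mice share a pool, and with the pool as a block the first of these counts was 304. On the first principal component, with 26.4% of the variance, the normoxic P3, P7 and P14 mice had values of -31.3 to -13.4, -6.31 to 3.88 and 34.6 to 47.3, with no overlap between ages. The hyperoxic P14 mice were at 8.50 to 23.6, between the normoxic P7 and P14 mice, and on the second component (8.76%) all normoxic mice were below all hyperoxic mice (at most -4.29 against at least 0.713).

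**Figure D3:**
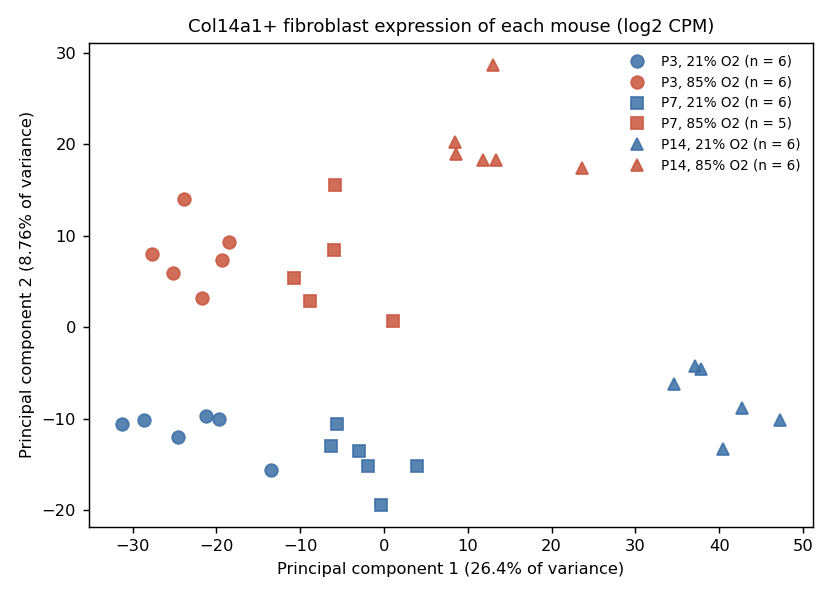
The first 2 principal components of Col14a1+ fibroblast expression (log2 CPM), with 1 point per mouse (35 mice), symbols for age and colours for oxygen level. Ages follow each other along the first component, hyperoxic P14 mice lie at 8.50 to 23.6 between normoxic P7 and P14 mice, and the second component separates the oxygen levels.

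In normoxia most tested members of the adventitial, proteoglycan, collagen, TGF-beta and complement lists rose, and most cell cycle genes fell. Of 25 adventitial fibroblast genes tested, 19 rose from P3 to P14 and none fell, with a median log2 fold change of 1.15, against 0.00 over all genes. Of 10 small leucine-rich proteoglycans, 7 rose (median 1.09), of 32 collagen genes 17 rose and 4 fell (median 0.36), and of 30 genes of the TGF-beta, activin and BMP pathways 19 rose and 1 fell (median 0.67). The complement list had the highest median, 2.42, and 8 of its 9 tested genes rose. The components C2, C3 and C4b rose by 2.81 ± 0.33, 3.05 ± 0.57 and 3.02 ± 0.42, and the inhibitor gene Serping1 by 1.80 ± 0.11. Of 31 cell cycle genes, 21 fell and none rose (median -3.13). Of all genes, 18.2% rose and 17.9% fell. These lists were drawn up with earlier results of these data known, so counts above these shares are a description with no test.

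Single genes changed by far more. Mmp3, the gene of the matrix protease stromelysin-1, was at 0, 2.05 and 6.67 CPM at P3 and at 100, 211 and 530 CPM at P14 in normoxia, a log2 fold change of 6.63 ± 0.58 that was called. Inmt, an N-methyltransferase gene, went from 0, 1.96 and 12.7 CPM to 180, 424 and 550 CPM (6.63 ± 0.53, called). In both genes every P14 mouse was above every P3 mouse. Col15a1 (4.80 ± 0.54), the water channel gene Aqp1 (4.17 ± 0.39) and the cholesterol exporter gene Abca1 (3.44 ± 0.25) also rose. Pdgfra, the receptor for platelet-derived growth factor that marks many lung fibroblasts, was at 89.5, 128 and 151 CPM at P3, 98.0, 120 and 158 CPM at P7 and 316, 331 and 355 CPM at P14 in normoxia, so that the rise fell between P7 and P14.

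Hyperoxia changed few genes at P3 and P7 and many at P14. Over all ages together, 1190 of 8002 genes were called (14.9%), 615 higher (7.69%) and 575 lower (7.19%) in hyperoxia. At P3, 91 were called (1.14%), of which 84 were higher (1.05%) and 7 lower (0.0875%). At P7, 171 were called (2.14%), 105 higher (1.31%) and 66 lower (0.825%), and at P14, 1307 (16.3%), 666 higher (8.32%) and 641 lower (8.01%). With the pool as a block the counts were 167 at P3 and 280 at P7. Within single pools, with 3 against 3 mice (3 against 2 in the P7 pool), there were 36 genes in the P3_P7 pool and 19 in the P3 pool at P3, and 96 in the P3_P7 pool and 12 in the P7 pool at P7. Without P7 hyperoxia mouse 3, the P7 count was 91. At P14, 822 genes were called when the 6 mice of pool 2 were left out and 212 when those of pool 1 were, of which 684 and 195 were among the 1307. Below, these fits with 3 against 3 P14 mice are given as within pool 1 and within pool 2. Mice of the other ages stayed in all these fits, which therefore share part of their estimate of the spread and are not independent. After the hyperoxic P14 sums were thinned to the depth of the normoxic ones, 1105 genes were called. The response itself differed between P14 and P3 in 302 genes (3.77%), 155 of them upward (1.94%) and the rest downward (1.84%), and in 559 with the pool as a block. A count of calls depends on the threshold and on the cells and UMIs of the mice compared, so the counts alone do not show that the ages differ.

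At P14 the main chains of types I and III collagen were lower in hyperoxia. Col1a1, which encodes a chain of type I collagen, was at 18400, 20857 and 21379 CPM in normoxia and at 10346, 12996 and 14908 CPM in hyperoxia, with no overlap (log2 fold change -0.75 ± 0.11, adjusted p = 7.61e-06). Col1a2, its partner chain, differed by -0.63 ± 0.09 (adjusted p = 7.18e-06), and Col3a1 by -0.65 ± 0.11 (adjusted p = 6.5e-05). All 3 were called within each P14 pool, and their response at P14 differed from that at P3, for Col1a1 by -0.64 ± 0.16 (adjusted p = 0.0157). Col1a1 was at 7726, 9214 and 12627 CPM in normoxia and 6825, 8389 and 11111 CPM in hyperoxia at P3. From P3 to P14 in normoxia it had risen by 1.19 ± 0.11, so that hyperoxic P14 mice lay between normoxic P3 and P14 mice in their medians. The comparison of ages and that of oxygen levels share the normoxic P14 mice.

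Beside the counts for lists at P14 stand all genes tested, of which 8.32% were called higher and 8.01% lower. The lists were chosen with earlier results of these data known, so counts above these shares are a description with no test. Over the whole list, 10 of 32 collagen and collagen processing genes fell at P14 and 5 rose (median log2 fold change -0.23, against -0.01 over all genes), and within pool 1 and pool 2 there were 6 and 6 lower and 3 and 1 higher. Among those higher was Plod2, a lysyl hydroxylase that modifies collagen crosslinks, at 55.8, 63.9 and 81.1 CPM in normoxia and 111, 132 and 152 CPM in hyperoxia, without overlap (0.96 ± 0.14, adjusted p = 3.9e-06). Plod2 was also called at P7 (0.48 ± 0.12) and not at P3 (0.14 ± 0.12). Pcolce2, an enhancer of procollagen C-proteinase, fell from 711, 914 and 1094 CPM to 347, 495 and 651 CPM (-0.94 ± 0.13, adjusted p = 3.93e-06), again without overlap.

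More proteoglycan and elastic fibre genes fell than rose. Of 10 small leucine-rich proteoglycans, 5 fell and 1 rose (median -0.45), with 3 and 1 lower and none higher within pool 1 and pool 2. Omd, the gene of osteomodulin, was at 23.7, 57.9 and 91.7 CPM in normoxia and 5.46, 12.3 and 19.9 CPM in hyperoxia (-2.23 ± 0.32, adjusted p = 5.42e-06), and was called in each pool. Dcn was at 5560, 6072 and 6635 CPM and 3563, 3756 and 6155 CPM (-0.59 ± 0.13, adjusted p = 0.00154), with 1 hyperoxic mouse inside the normoxic range. The Dcn call was lost in either pool alone, at -0.55 within pool 1 (adjusted p = 0.0659) and -0.63 within pool 2 (adjusted p = 0.0528). Of 17 elastic fibre genes, 5 fell and 2 rose (median -0.30), with 4 lower and 1 higher within pool 1 and 1 lower and none higher within pool 2. Eln, the elastin gene, fell by 0.86 ± 0.18 on the log2 scale (adjusted p = 0.000695), but within pool 2 its value was -0.18. Ltbp4, which holds latent TGF-beta on elastic microfibrils, differed by -0.61 ± 0.10 (adjusted p = 4.11e-05) and was called in each pool.

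Some matricellular genes rose. Of 18 tested, 6 rose at P14 and 1 fell (median 0.11, against 8.32% and 8.01% of all genes), and 6 and 4 rose within pool 1 and pool 2. Tnc, which encodes tenascin-C, a matrix protein of growing and injured tissue, was at 19.4, 25.2 and 37.9 CPM in normoxia and 44.0, 70.4 and 110 CPM in hyperoxia at P14, without overlap (1.38 ± 0.24, adjusted p = 6.56e-05). At P3 it was at 154, 179 and 213 CPM in normoxia, so that it had fallen with age by 2.66 ± 0.22 on the log2 scale. Fn1, the fibronectin gene, was at 962, 1151 and 1230 CPM in normoxia and 1816, 1894 and 2354 CPM in hyperoxia (0.77 ± 0.10, adjusted p = 1.34e-06). Nov and Wisp1, of the CCN family, rose by 1.81 ± 0.31 and 0.81 ± 0.18. Thbs1, the thrombospondin-1 gene, was called at all 3 ages, by 1.0 ± 0.18 at P3, 0.88 ± 0.19 at P7 and 0.85 ± 0.19 at P14, although within P14 pool 2 its value of 0.58 did not pass (adjusted p = 0.177).

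Among proteases and their inhibitors more members fell than rose at P14. Serpine2, the gene of the thrombin and plasmin inhibitor protease nexin-1, was at 91.9, 136 and 184 CPM in normoxia and 332, 510 and 692 CPM in hyperoxia at P14 (1.86 ± 0.27, adjusted p = 5.42e-06), and was higher at P3 (1.16 ± 0.26) and P7 (1.08 ± 0.26) too. Timp1, an inhibitor of metalloproteases, rose by 2.58 ± 0.37 at P3, 1.6 ± 0.38 at P7 and 1.83 ± 0.37 at P14. At P14 its hyperoxic mice spread widely, with 188, 514 and 908 CPM against 104, 138 and 153 CPM, and within pool 2 the value of 1.56 lost the call. In the whole list 2 of 19 genes rose, a share near the 8.32% of all genes, and 7 fell at P14 (8.01% of all genes; median -0.34), with 2 and 5 within pool 1 and 1 and 0 within pool 2. Mmp3, whose gain with age is given above, fell by 1.22 ± 0.31 (adjusted p = 0.0052), to 23.5, 107 and 211 CPM, and was called in pool 1 and not in pool 2 (-1.05).

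**Figure D4:**
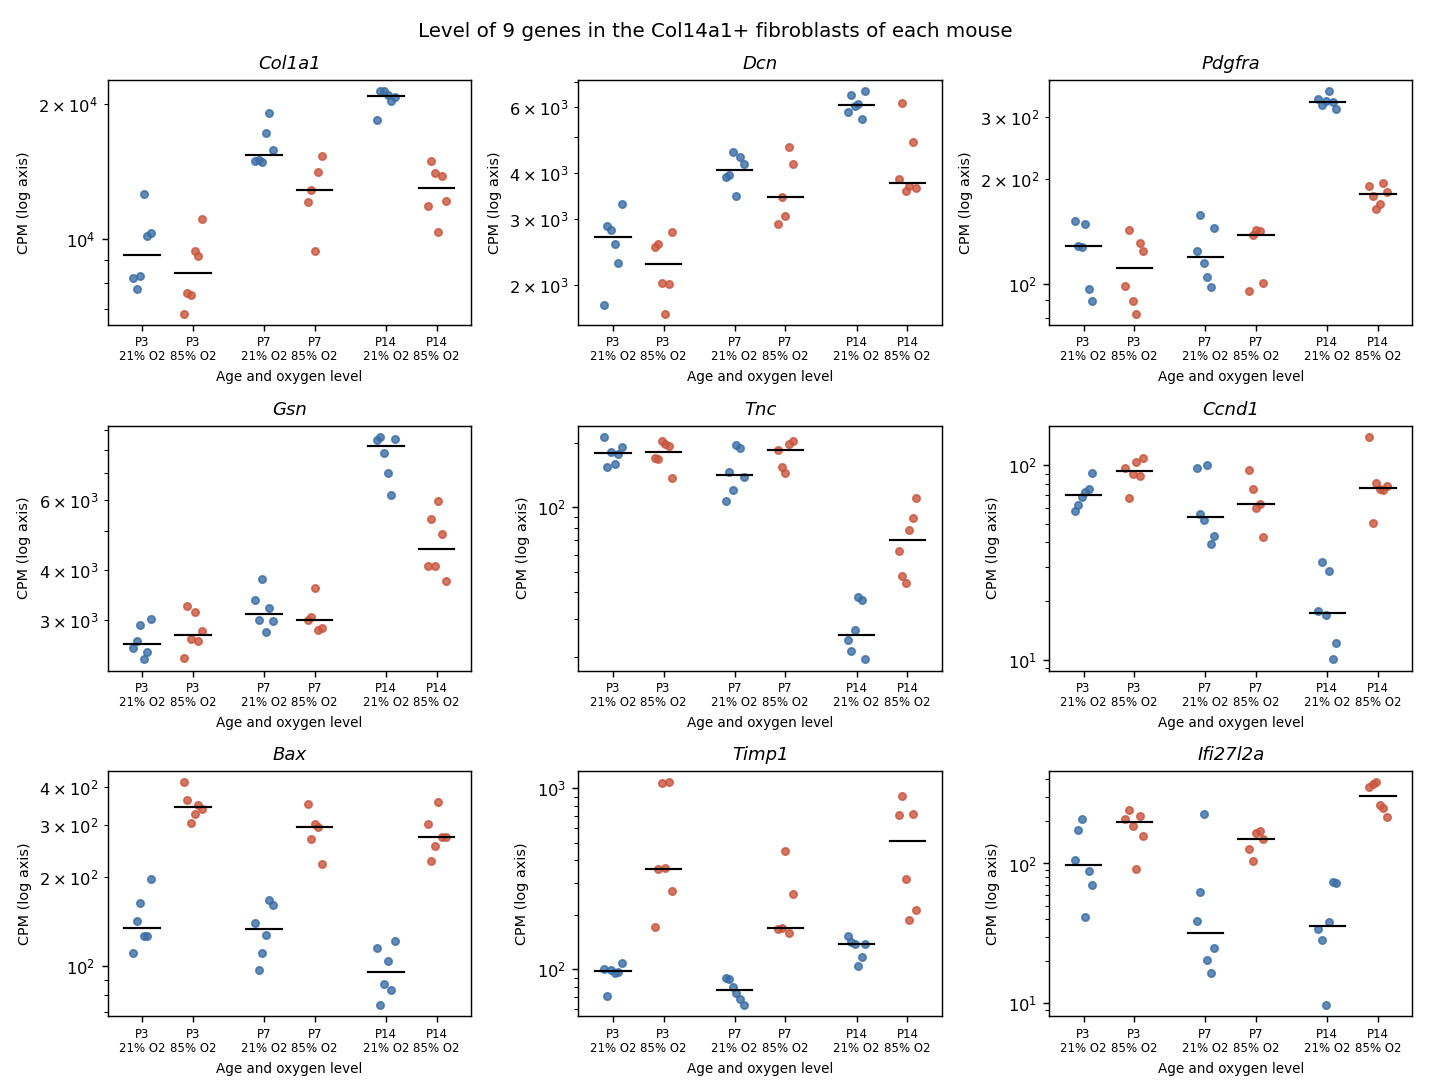
CPM of 9 genes in the Col14a1+ fibroblasts of each mouse (points, log axis), by age and oxygen level, with bars at the medians. At P14, Col1a1, Pdgfra and Gsn were lower and Tnc, Ccnd1, Bax, Timp1 and Ifi27l2a higher in all hyperoxic mice than in any normoxic mouse, and Dcn overlapped.

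Some adventitial fibroblast genes were lower in hyperoxia at P14. At this age, 10 of 25 such genes fell and 2 rose (median -0.45; 8.01% and 8.32% of all genes), with 6 and 3 within pool 1 and 3 and 1 within pool 2. Gsn, the gene of the actin-severing protein gelsolin, was at 2390, 2608 and 3021 CPM at P3 and 6161, 8178 and 8641 CPM at P14 in normoxia, and at 3767, 4523 and 5961 CPM at P14 in hyperoxia. The groups at P14 did not overlap (-0.80 ± 0.11, adjusted p = 1.26e-06), and the response differed from that at P3 (-0.93 ± 0.15, adjusted p = 0.000367). Serpinf1, which encodes the antiangiogenic factor PEDF, was at 961, 979 and 1170 CPM in normoxia and 429, 545 and 788 CPM in hyperoxia at P14 (-0.95 ± 0.14, adjusted p = 6.29e-06), and at 234, 270 and 364 CPM in normoxia at P3. Col14a1 itself was at 1015, 1220 and 1290 CPM in normoxia and 748, 943 and 1109 CPM in hyperoxia at P14 (-0.39 ± 0.12, adjusted p = 0.0196), with overlap, and within pool 1 its value of -0.18 lost the call. Of the other marker genes, Pi16 fell by 1.24 ± 0.37 on the log2 scale at P14 (adjusted p = 0.0186), with 56.8, 225 and 335 CPM in normoxia and 23.5, 86.4 and 246 CPM in hyperoxia. These ranges overlapped widely, and within pools the values of -1.01 and -1.55 were not called. Ly6a was not called at P14 (0.46 ± 0.39, adjusted p = 0.452), P3 (1.12 ± 0.41) or P7 (0.89 ± 0.40), but it was called higher in hyperoxia over all ages (0.81 ± 0.23, adjusted p = 0.0133).

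Growth factor signalling genes were split. Pdgfra was at 164, 181 and 195 CPM in hyperoxia at P14, below all normoxic mice (316 to 355 CPM), a log2 fold change of -0.96 ± 0.14 (adjusted p = 3.58e-06) that was absent at P3 (-0.10 ± 0.15) and P7 (-0.02 ± 0.15), with a difference between P14 and P3 of -0.85 ± 0.20 (adjusted p = 0.0119). Igf1, the insulin-like growth factor gene, was at 194, 263 and 436 CPM in normoxia and 429, 584 and 656 CPM in hyperoxia (0.83 ± 0.17, adjusted p = 0.000502), the lowest hyperoxic mouse lying just under the highest normoxic one. Among 24 growth factors and receptors, 3 rose and 7 fell (median -0.02; 8.32% and 8.01% of all genes), with 2 and 6 within pool 1 and 2 and 2 within pool 2. None of the 30 TGF-beta, activin and BMP genes rose and 6 fell (median -0.27), 4 within pool 1 and 1 within pool 2, where 1 rose. Tgfbi, a TGF-beta-induced matrix protein that is also a myofibroblast marker, was at 256, 349 and 386 CPM in normoxia and 52.5, 77.5 and 86.6 CPM in hyperoxia, without overlap (-2.26 ± 0.26, adjusted p = 7.17e-08). The WNT and hedgehog list had 5 lower and no higher genes of 22 (median -0.34), 3 within pool 1 and 0 within pool 2. Of 10 retinoid pathway genes none was called at P14.

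A number of p53 targets were higher in hyperoxia from P3 on. Of 20 tested, 11 rose at P3 and none fell (median 1.02), 8 rose at P7 (median 0.51), and at P14 9 rose and 1 fell (median 0.41), against 1.05%, 1.31% and 8.32% of all genes called higher. Within P14 pool 1 and pool 2, 7 and 7 rose, and with 32 cells from every mouse the counts by age were 5, 3 and 6. Bax, the gene of a pore-forming protein of the cell death pathway, was at 111, 134 and 196 CPM in normoxia and 304, 343 and 416 CPM in hyperoxia at P3 (1.31 ± 0.14, adjusted p = 1.51e-08). At P7 it was at 97, 134 and 167 CPM in normoxia and at 353, 268, 302, 294 and 220 CPM in the 5 hyperoxic mice (1.13 ± 0.14, adjusted p = 2.24e-06), and at P14 at 74.0, 95.6 and 121 CPM and 226, 272 and 357 CPM (1.44 ± 0.15, adjusted p = 2.2e-08). The groups did not overlap at any age, and the response at P14 did not differ detectably from that at P3 (0.13 ± 0.20, adjusted p = 0.794).

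Cdkn1a, which encodes the cell cycle inhibitor p21, rose by 2.4 ± 0.30 at P3, 2.00 ± 0.30 at P7 and 1.54 ± 0.30 at P14. At P3 it was at 51.2, 72.2 and 164 CPM in normoxia and 298, 486 and 610 CPM in hyperoxia. Cyclin G1 (Ccng1) rose by 1.5, 1.35 and 1.23 and the RNA-binding protein gene Zmat3 by 1.70, 1.46 and 1.38, and both were called within each P14 pool. Fas, a death receptor gene, was called at P3 only (1.08 ± 0.23, adjusted p = 0.00409), with 0.01 ± 0.22 at P14, and its response differed between the ages (-1.07 ± 0.32, adjusted p = 0.0472). The member that fell at P14 was Sesn1, the gene of the stress protein sestrin 1, at 33.1, 61.7 and 75.0 CPM in normoxia and 12.7, 15.7 and 20.0 CPM in hyperoxia (-1.89 ± 0.22, adjusted p = 1.16e-07).

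Some antioxidant genes rose at every age. Of 34 NRF2 and antioxidant genes, 5 rose at P3 (median 0.36), 5 at P7 (median 0.27), and 14 rose and 1 fell at P14 (median 0.28), against 1.05%, 1.31% and 8.32% of all genes called higher. Within P14 pool 1 and pool 2 there were 6 and 3 higher, and with 32 cells from every mouse the counts by age were 0, 2 and 5. The glutathione peroxidase gene Gpx1 was called at all ages (0.55, 0.57 and 0.65), and within pool 1 at P14 its value of 0.52 lost the call. Gpx3, a secreted peroxidase, had medians of 115 CPM in normoxia and 213 CPM in hyperoxia at P14, without overlap (0.87 ± 0.16, adjusted p = 9.99e-05). Srxn1, which encodes sulfiredoxin, rose at P3 (2.11 ± 0.35, adjusted p = 0.00013) from 4.04, 5.84 and 15.8 to 21.5, 25.4 and 46.1 CPM, and was at 0.06 ± 0.37 at P14, a difference of -2.05 ± 0.52 (adjusted p = 0.0184). Gstm1, a glutathione transferase gene, turned with age: it rose at P3 (0.90 ± 0.19) and P7 (0.87 ± 0.18) and fell at P14 (-0.69 ± 0.17, adjusted p = 0.00296), and this difference was called (-1.59 ± 0.25, adjusted p = 0.000361). At P14 Gstm1 was at 160, 246 and 310 CPM in normoxia and 85.5, 162 and 218 CPM in hyperoxia, and the fall was called in pool 1 and not in pool 2 (-0.62).

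**Figure D5:**
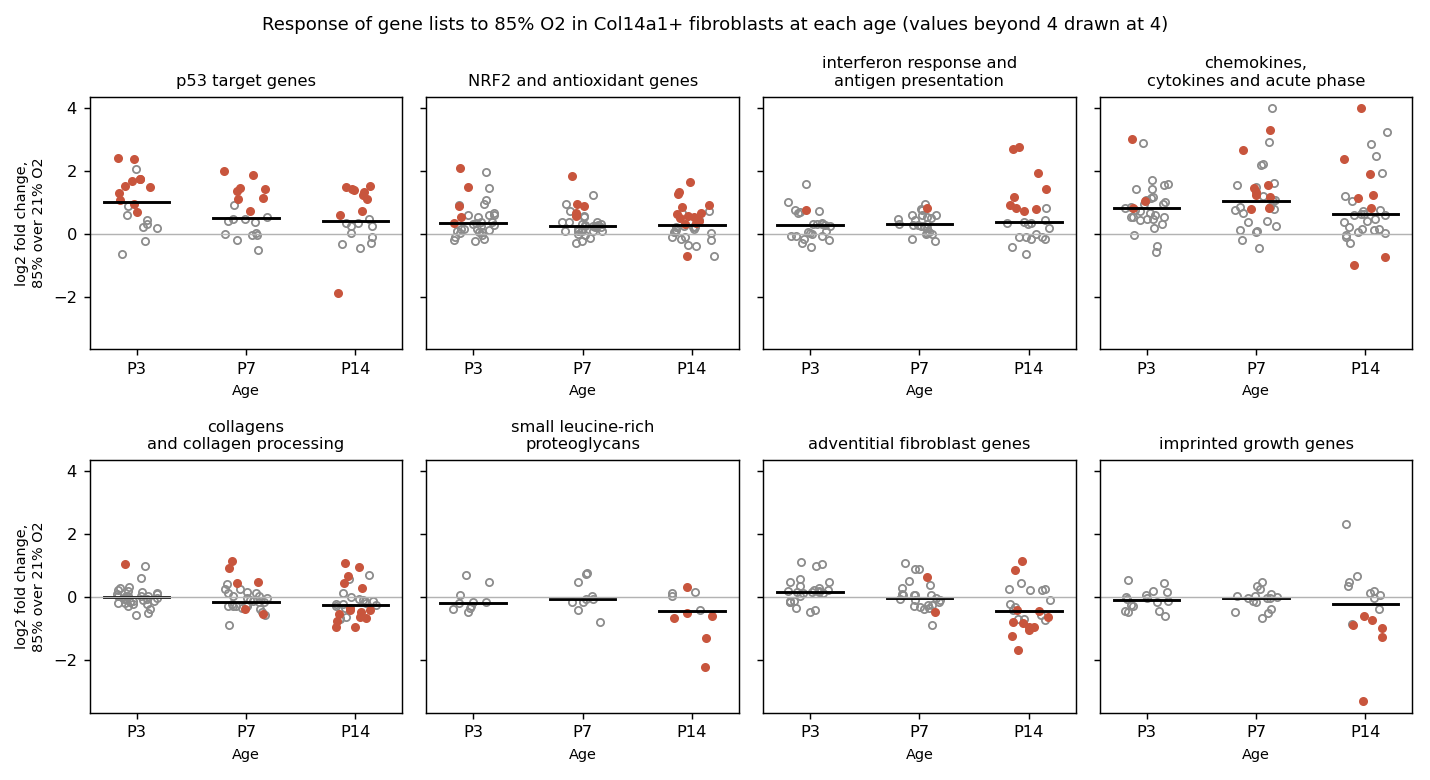
log2 fold changes between 85% and 21% O2 of the tested members of 8 gene lists at P3, P7 and P14 (points; filled red points passed the test, open grey points did not, black bars are medians, values beyond 4 are drawn at 4). The p53 targets were shifted upward at all ages (medians 1.02, 0.51 and 0.41), and the collagen, proteoglycan and adventitial lists shifted downward at P14 (medians -0.23, -0.45 and -0.45).

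Some inflammatory genes were higher at each age. Of 32 chemokine, cytokine and acute phase genes, 3 rose at P3 (Ccl2, Il6 and Tnfrsf1a, median of the list 0.81), 9 at P7 (median 1.06), and 6 rose and 2 fell at P14 (median 0.62), against 1.05%, 1.31% and 8.32% of all genes called higher at these ages and 8.01% lower at P14. With 32 cells from every mouse 1 rose at P3, 1 at P7 and 4 at P14. Ccl2, a chemokine for monocytes, was at 3.17, 48.6 and 159 CPM in normoxia and 33.7, 281 and 1542 CPM in hyperoxia at P3, with wide overlap (3.02 ± 0.65, adjusted p = 0.00645). Il6, the interleukin 6 gene, was at 43.1, 69.7 and 76.2 CPM and 92.6, 132 and 182 CPM, without overlap (1.04 ± 0.26, adjusted p = 0.0238), and at P14 it did not pass (0.63 ± 0.24, adjusted p = 0.0671). At P14 Vcam1, a leukocyte adhesion molecule, rose from 155, 182 and 234 to 300, 344 and 439 CPM (0.83 ± 0.13, adjusted p = 2.59e-05) and was called in each pool. The acute phase gene Saa3 had the largest value (6.09 ± 1.27, adjusted p = 0.000668), and its 6 hyperoxic mice were at 2405, 5.59, 100, 5.70, 1326 and 27.2 CPM against 0 to 21.8 CPM in normoxia. The Saa3 value thus rested on 2 mice above 1000 CPM, and it lost the call within pool 2 (5.05). Within P14 pool 1 and pool 2, 5 and 2 genes of the list rose.

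Some interferon-response genes rose at P14. Of 24 tested, 9 rose and none fell (median 0.37), where 1 rose at P3 and 1 at P7 (Ifitm3 both times). Over all genes the share called higher also grew, from 1.05% and 1.31% to 8.32%. Ifi27l2a was at 9.68, 35.8 and 73.4 CPM in normoxia and 214, 306 and 380 CPM in hyperoxia at P14, without overlap (2.76 ± 0.43, adjusted p = 1.64e-05), and its response differed from that at P3 (2.10 ± 0.58, adjusted p = 0.0291). Isg15, which encodes a ubiquitin-like protein, was at 0, 7.71 and 14.1 CPM and 21.7, 38.7 and 94.3 CPM (2.71 ± 0.54, adjusted p = 0.000405). Bst2, the tetherin gene, was at 37.9, 58.6 and 77.6 CPM and 88.7, 137 and 212 CPM (1.17 ± 0.22, adjusted p = 0.000152), and Ifit3 at 10.6, 14.2 and 50.1 CPM and 30.8, 48.5 and 131 CPM (1.42 ± 0.37, adjusted p = 0.00616). More of these calls held within pool 1 than within pool 2. Within pool 1, 7 members rose, and within pool 2 only Ifitm3 did (0.69), while Ifi27l2a (1.87), Isg15 (2.19), Bst2 (1.04) and Ifit3 (0.43) did not pass. The 8 leukocyte markers summed to 116, 267 and 347 CPM in normoxia and 101, 171 and 195 CPM in hyperoxia at P14.

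The promoters of Isg15, Ifit3 and Bst2 are shown because these 3 genes rose together and share the letters TTTC, any 2 bases and TTTC, the core of the interferon-stimulated response element. RefSeq's GRCm38.p6 gives the 250 bases before each start, 5′ to 3′ on the gene's strand, and capitals mark matches on either strand, some of which overlap. Isg15 lies at chr4:156200819-156201068 (minus strand), Ifit3 at chr19:34583279-34583528 (plus strand) and Bst2 at chr8:71537473-71537722 (minus strand).
Isg15: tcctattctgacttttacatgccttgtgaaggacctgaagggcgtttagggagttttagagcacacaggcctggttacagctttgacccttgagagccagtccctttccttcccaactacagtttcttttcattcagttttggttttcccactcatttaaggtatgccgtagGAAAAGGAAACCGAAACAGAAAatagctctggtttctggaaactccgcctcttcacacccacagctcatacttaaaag
Ifit3: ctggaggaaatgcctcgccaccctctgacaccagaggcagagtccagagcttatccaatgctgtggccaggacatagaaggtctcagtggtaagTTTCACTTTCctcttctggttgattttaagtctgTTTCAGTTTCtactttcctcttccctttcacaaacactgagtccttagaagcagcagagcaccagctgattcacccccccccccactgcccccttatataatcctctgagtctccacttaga
Bst2: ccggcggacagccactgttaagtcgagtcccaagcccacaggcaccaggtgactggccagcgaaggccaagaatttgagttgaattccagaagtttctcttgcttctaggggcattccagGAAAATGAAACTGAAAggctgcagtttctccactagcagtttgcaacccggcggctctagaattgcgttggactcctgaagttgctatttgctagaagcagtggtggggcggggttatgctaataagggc
The first match begins 78, 156 and 130 bases before the start in Isg15, Ifit3 and Bst2. Of 32851 promoters of this length, 978 (2.98%) held the letters. Among the 24 promoters found for the interferon list there were 11, and among the 6 found for the members called at P14 there were 3. A match of letters does not show that a factor binds there.

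Some cell cycle genes were higher in hyperoxia at P14, where many were near 0 in normoxia. Top2a, the topoisomerase gene of dividing cells, was at 28.5, 102 and 228 CPM at P3 and 0, 0 and 3.53 CPM at P14 in normoxia. In hyperoxia at P14 it was at 1.42, 51.1 and 95.9 CPM, and 5 of the 6 hyperoxic mice were above all normoxic mice. Over each group of 6 mice, 172 UMIs of Top2a in hyperoxia stood against 1 in normoxia, a ratio of depth-scaled counts of 106 (95% exact interval 18.7 to 4203, counting error only). Birc5, which encodes survivin, had 96 against 1 (ratio 59.1, 10.3 to 2356). Both were found in under 10% of the cells, so they were not called at P14. Their response was called as different between P14 and P3 by edgeR (5.84 and 5.16, adjusted p = 0.00563 and 0.0127). In that comparison they met the 10% rule only through the P3 mice. With 1 UMI in normoxia at P14, the sizes of these differences are uncertain.

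Of 31 cell cycle genes, 6 rose at P14 and none fell (median 1.5), and none was called at P3 or P7, where 8.32%, 1.05% and 1.31% of all genes were called higher at P14, P3 and P7. Ccnd1, the gene of cyclin D1, was at 10.0, 17.4 and 31.7 CPM in normoxia and 50.3, 76.7 and 140 CPM in hyperoxia at P14, without overlap (2.12 ± 0.28, adjusted p = 1.26e-06), and called in each pool. At P3 it was at 57.8, 70.6 and 91.4 CPM in normoxia, close to the hyperoxic P14 mice in its median. Stmn1, which encodes the microtubule regulator stathmin, was at 10.0, 24.8 and 35.7 CPM and 25.6, 124 and 150 CPM (2.16 ± 0.44, adjusted p = 0.000503), and within pool 2 its value of 1.83 lost the call. Ckap2, a spindle protein gene that was not on the list, rose at all ages (1.74 ± 0.29, 1.22 ± 0.34 and 3.69 ± 0.58) and was called within each P14 pool. Within pool 1 and pool 2, 7 and 1 genes of the list rose, and with 32 cells from every mouse 2 rose.

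The promoters of Top2a and Cdk1 are shown because both genes were nearly lost with age in normoxia and hold the letters TTTGAA, the core of the cell cycle homology region found in many genes of dividing cells. Top2a lies at chr11:99024190-99024439 and Cdk1 at chr10:69352913-69353162, both on the minus strand, and capitals mark matches on either strand.
Top2a: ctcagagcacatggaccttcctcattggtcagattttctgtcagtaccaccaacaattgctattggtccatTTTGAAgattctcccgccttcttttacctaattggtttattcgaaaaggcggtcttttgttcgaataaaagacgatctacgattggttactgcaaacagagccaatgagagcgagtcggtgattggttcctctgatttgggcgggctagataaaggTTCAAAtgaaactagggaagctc
Cdk1: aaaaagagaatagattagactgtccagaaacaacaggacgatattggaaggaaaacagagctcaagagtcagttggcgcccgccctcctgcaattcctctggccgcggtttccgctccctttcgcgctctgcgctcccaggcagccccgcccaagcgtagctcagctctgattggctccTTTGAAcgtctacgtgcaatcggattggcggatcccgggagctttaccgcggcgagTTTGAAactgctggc
Each holds 2 matches. Such a short motif is common, and 5252 promoters (16.0%) held it. It was in 7 of 27 promoters found for the cell cycle list and in 6 of the 17 found for members called between P14 and P3.

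Some genes of energy metabolism and some imprinted genes also differed at P14. Ldha, the lactate dehydrogenase gene, rose at all ages (0.45 ± 0.12, 0.68 ± 0.12 and 0.96 ± 0.13). At P14 it was at 98.7, 131 and 133 CPM in normoxia and 218, 247 and 329 CPM in hyperoxia, without overlap. Of 23 hypoxia-inducible and glycolytic genes, 6 rose and 4 fell at P14 (median 0.44; 8.32% and 8.01% of all genes), with 5 and 2 within pool 1 and 2 and 0 within pool 2. Those that rose were mostly glycolytic enzymes (Ldha, Pgk1, Pgam1, Gapdh and Pkm) with the mitochondrial gene Higd1a, while the mitophagy receptors Bnip3 and Bnip3l, Pfkp and the histone demethylase Kdm3a fell. Of 16 imprinted growth genes, 6 fell and none rose (median -0.20; 8.01% of all genes were lower), 5 within pool 1 and 4 within pool 2. Dlk1, a Notch-related ligand of immature cells, was at 14.5, 59.4 and 127 CPM in normoxia and 2.77, 5.37 and 19.6 CPM in hyperoxia (-3.31 ± 0.55, adjusted p = 3.92e-05), and at 238, 355 and 558 CPM in normoxia at P3. Peg3 (-0.87 ± 0.12) and the cell cycle inhibitor gene Cdkn1c (-1.28 ± 0.23) fell and were called in each pool, as was the long noncoding RNA Meg3 (-0.73 ± 0.13).

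Of the genes the study discusses for fibroblasts, Fbln1 (-0.04 ± 0.10), Cd44 (0.43 ± 0.18), Eng (0.28 ± 0.23) and Lepr (0.06 ± 0.28) were not called at P14 (adjusted p = 0.833, 0.0855, 0.443 and 0.915). The study reports Cd44, Eng and Lepr as higher in this cluster in hyperoxia at P14. It shows them as levels of single cells, whereas sums by mouse were tested here. Over all ages Cd44 was called higher in hyperoxia (0.39 ± 0.10, adjusted p = 0.00463). Other large changes at P14 fell outside the lists. Txnip, an inhibitor of thioredoxin, was at 199, 242 and 395 CPM in normoxia and 33.5, 63.7 and 124 CPM in hyperoxia (-1.88 ± 0.25, adjusted p = 1.56e-06). Errfi1, a feedback inhibitor of EGF receptors, fell by 1.62 ± 0.26 at P14 after values of 0.75 ± 0.28 at P3 and 0.79 ± 0.29 at P7 that did not pass, and its response differed between P14 and P3 (-2.37 ± 0.38, adjusted p = 0.000367). Bpgm, which encodes bisphosphoglycerate mutase, rose from 4.74, 13.1 and 16.7 to 25.1, 55.6 and 77.8 CPM (2.25 ± 0.38, adjusted p = 4.59e-05). All 3 were called within each pool. C1qtnf3, a secreted C1q-related protein, was lower at P3 (-1.25 ± 0.32), P7 (-1.87 ± 0.35) and P14 (-1.72 ± 0.38), and lost the P14 call within pool 2 (-1.51). The smooth muscle gene Acta2 was at 70.5, 149 and 204 CPM in normoxia and 341, 380 and 798 CPM in hyperoxia at P14 (1.67 ± 0.22, adjusted p = 7.89e-07), and was called in each pool.

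The 13 mitochondrial transcripts and 24 immediate-early and heat shock genes, which serve as signs of RNA quality and handling stress, were mostly not called. The median mitochondrial share of the UMIs of a cell was 3.52% in normoxia and 4.47% in hyperoxia at P14 (by mouse 3.18% to 4.09% and 3.54% to 4.92%), and its part in the results was not tested. None of the former was called at P14 (median 0.17), but 4 were called higher with the pool as a block. Of the latter, Egr1, Dusp1, Klf2 and Klf4 fell at P14 and none rose (median -0.21; 8.01% of all genes were lower). Within each P14 pool 1 fell, with 32 cells from every mouse none fell and 1 rose, and with the pool as a block 5 fell and 1 rose.

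Cells with a UMI of Ly6a or Pi16 were compared after thinning every cell to 1000 UMIs, which left out 18 shallower cells. Ly6a was found in 3.68% of cells in normoxia and 8.56% in hyperoxia at P3, 5.21% and 7.89% at P7, and 9.88% ± 3.49 and 13.3% ± 6.92 at P14. Pi16 was found in 5.43% and 2.87% at P3, 6.90% and 5.47% at P7, and 12.5% ± 5.41 and 6.18% ± 3.66 at P14. Without thinning the P14 shares were 23.9% and 31.2% for Ly6a and 32.6% and 22.7% for Pi16. No comparison between oxygen levels or between successive ages passed (14 exact permutation tests, smallest adjusted p = 0.192). For Pi16 at P14 the difference between oxygen levels was -6.30 points. With cells thinned to 2000 UMIs it was -15.1 points, which did not pass either (exact permutation adjusted p = 0.0606). P14 was not tested against P3, between which the study reports a rise of Ly6a+ cells at both oxygen levels. Unthinned Ly6a shares, which depend on depth, were 18.0% to 20.4% at P3 and 21.2% to 43.2% at P14 in hyperoxia (by mouse). In normoxia they were 7.35% to 21.9% and 8.82% to 34.9%. In Col13a1+ fibroblasts, also thinned to 1000 UMIs, Ly6a was found in 0.554% and Pi16 in 0.0739% of cells. The thinned shares in Col14a1+ fibroblasts were well above this background.

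At the same thinned depth, the cells with Ly6a differed from the rest of the cluster in the same mice. At least 5 cells on each side were found in 22 mice. There, cells with Ly6a had 8051 CPM of Dcn against 3039 CPM, higher in 22 of 22 mice. The microfibril gene Mfap5 was at 3495 against 1431 CPM (21 of 22). Pi16 was at 395 against 66.6 CPM (19 of 22) and Il33, a cytokine gene, at 297 against 65.6 CPM (18 of 22). They had less Eln (2829 against 7728 CPM, higher in 0 of 22 mice), less Mgp, a calcification inhibitor (8921 against 17102 CPM, 1 of 22), and less Tnc (20.4 against 125 CPM, 1 of 22). In 15 mice, cells with Pi16 had more of the fibulin gene Fbln2 (504 against 112 CPM, 13 of 15) and of Cd34 (888 against 357 CPM, 14 of 15), and less of the nephronectin gene Npnt (19.9 against 191 CPM, 0 of 15). Sides with few cells at this depth often hold no UMI of genes as low as Tnc and Npnt, which weights counts of mice toward lower. For Eng, cells with Ly6a averaged 58.0 against 35.9 CPM, yet were higher in 6 mice and lower in 14. The split was made on the same counts from which the levels were taken, so these values are a description with no test.

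Col13a1+ fibroblasts of the same mice and libraries were taken as the population for comparison. The response to hyperoxia at P14 differed between both types in 827 of 8646 genes (9.57%), with 391 higher (4.52%) and 436 lower (5.04%) in Col14a1+ fibroblasts. Within pool 1 and pool 2, 492 and 392 genes were called. Differences went both ways among the lists. In Col14a1+ fibroblasts the response of 18 of 34 chemokine, cytokine and acute phase genes was lower and that of 1 higher (median -1.08, against -0.01 over all genes), and that of 17 of 32 collagen genes was lower and of 4 higher (median -0.51). Small leucine-rich proteoglycans went the other way, with 5 of 10 higher and 1 lower (median 0.52), and 2 and 4 higher within pool 1 and pool 2. Of 22 p53 targets, 8 were lower (median -0.70), and of 28 interferon-response genes, 7 (median -0.56), with none higher in either list. Within pool 1 and pool 2 the lower counts were 14 and 13 for the chemokine list, 11 and 10 for the collagens, 7 and 4 for p53 targets and 6 and 3 for interferon-response genes.

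The response of several genes was lower in Col14a1+ than in Col13a1+ fibroblasts. Cxcl1, a chemokine for neutrophils, went from 26.2 to 468 CPM in Col13a1+ fibroblasts (medians of normoxia and hyperoxia at P14) and from 221 to 340 CPM in Col14a1+ fibroblasts, a difference of -3.31 ± 0.33 (adjusted p = 1.62e-09). Hp, the haptoglobin gene, went from 66.0 to 1227 CPM in Col13a1+ fibroblasts, and its difference was -3.56 ± 0.37 (adjusted p = 4.7e-09). Igf1 rose in both, but from 89.0 to 752 CPM in Col13a1+ fibroblasts, so that its rise was weaker here by 2.11 on the log2 scale (-2.11 ± 0.15, adjusted p = 4.88e-13). Col1a1 was at 2019 and 1954 CPM in Col13a1+ fibroblasts, in normoxia and hyperoxia, beside the fall described above (-0.68 ± 0.09, adjusted p = 2.55e-07). Serpinf1 went from 7.81 to 25.8 CPM there while it fell here (-2.55 ± 0.20, adjusted p = 7.04e-12). Mmp3 too went in opposite directions (-4.47 ± 0.33, adjusted p = 1.93e-12), with 6.03 and 48.6 CPM in Col13a1+ fibroblasts.

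In the other direction, Inmt fell in Col13a1+ fibroblasts, from 3672 to 168 CPM, and fell less in Col14a1+ fibroblasts, from 424 to 145 CPM (2.50 ± 0.20, adjusted p = 1.22e-11). Pdgfra fell in both, from 444 to 78.0 CPM in Col13a1+ fibroblasts (1.29 ± 0.20, adjusted p = 1.16e-05), but within pool 2 the difference of 0.52 did not pass. Stmn1 fell from 146 to 43.2 CPM in Col13a1+ fibroblasts and rose from 24.8 to 124 CPM in Col14a1+ fibroblasts (3.71 ± 0.29, adjusted p = 8.43e-12). Gpx3 fell from 569 to 289 CPM there and rose here (1.78 ± 0.14, adjusted p = 1.11e-11). Cdkn1a rose in both types and by less in Col14a1+ fibroblasts (-2.57 ± 0.25, adjusted p = 6.3e-10). Apart from that of Pdgfra, the differences named in these paragraphs on Col13a1+ fibroblasts were called within each P14 pool.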

How the data were processed

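Whole lungs from 36 mice were processed as MULTI-seq pools in 6 10x Genomics 3′ libraries. The deposited counts are raw UMI counts per gene and cell that the authors made with Cell Ranger 3.0.2 against mm10 (the submitters' processing notes), after removing doublets by sample barcode and clusters with markers of another compartment. The authors' deposited mitochondrial percent and annotation per cell were used as given; no further doublet caller was run. As stated by the study, cell cycle and mitochondrial share were regressed out before clustering.

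Counts were summed per mouse over Col14a1+ fibroblasts (at least 10 cells) and tested by edgeR 4.0.16 in R 4.3.3 (TMM, low-count filter, quasi-likelihood test, Benjamini-Hochberg adjustment over all genes). Shares were compared by exact permutation tests over 924 splits in Python 3.11.15 (SciPy 1.17.1). Each mouse is 1 replicate. Intervals cover counting error only. Members and lists were chosen with earlier results of these data known. The genes named were 4 markers, 9 genes from the study's text, the 8 largest rises and 8 largest falls at P14 (average log2 CPM of at least 5), the 4 smallest p-values at P14 of each of the 21 lists, the 6 largest each way with age and between types, and the 4 largest each way in the difference between P14 and P3; other genes named were chosen from the lists after their values were seen.

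Pools were used as replicate blocks. The P14 replicates are separate pools, while both replicates of the P3_P7 pool are libraries of the same mice. Residuals of mice of the same pool and other oxygen level correlated by 0.0775 on average. Those of the same age and other pool averaged -0.179, which includes pairs of the same group. Residuals were taken from group means, which pushes such pairs toward negative values, so these averages are not comparable. On simulated data, the P14 test recovered 66% of genes changed by log2 1 and 95% of those changed by log2 2. Alternatives were DESeq2 1.42.0, other filters, equal cell numbers, thinning, pool as a block and leaving out pools or mice.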

Additional observations from a re-analysis of the deposited data

Results flagged for a closer look

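A mouse stood apart from the others of its group in 34 of 324 groups of values tested with Dixon's criterion. Chance flags about 1 in 20 where values are normal, but many CPM are skewed or at 0, so this rate need not hold. In normoxia at P3 the flagged values were the share of cells with Pi16 in mouse 6 (13.6364%) and Saa3 in mouse 1 (28.9 CPM). Prc1 in mouse 5 (253 CPM) and Fabp3 in mouse 3 (28.6 CPM) were flagged there too. In hyperoxia at P3 they were Pi16 (119 CPM), Tgfbi (106 CPM) and Chodl (27.6 CPM) in mouse 2, Errfi1 (97.2 CPM) and Hp (112 CPM) in mouse 3, and Fabp3 (40.1 CPM) and Aldh1a3 (290 CPM) in mouse 5. At P7 in normoxia Ifi27l2a was flagged in mouse 3 (225 CPM). All other flags there were in mouse 5, namely the low Dpep1 (85 CPM), Cks2 (98.0 CPM), Ckap2 (32.7 CPM), Top2a (108 CPM) and Ube2c (65.4 CPM). In hyperoxia at P7 they were Bpgm (22.3 CPM, low) and Hp (202 CPM) in mouse 3 and Prc1 in mouse 6 (0 CPM). At P14 in normoxia they were Col1a1 (18400 CPM, low) and Cdk1 (7.94 CPM) in mouse 1, Txnip (395 CPM), Top2a (3.53 CPM) and Prc1 (10.6 CPM) in mouse 2, Lepr (77.4 CPM, high) and Hp (7.26 CPM, low) in mouse 3, Ube2c in mouse 4 (9.47 CPM), and Cxcl10 (73.4 CPM) and Birc5 (3.34 CPM) in mouse 5. At P14 in hyperoxia they were Ly6a (687 CPM), Dlk1 (19.6 CPM) and Cxcl10 (495 CPM) in mouse 2 and Tsc22d3 (167 CPM) in mouse 4.

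The response to hyperoxia differed between P14 and P3 by the interaction term of the edgeR fit. It was lower at P14 in Dlk1 (log2 difference -3.18), Aldh1a3 (-2.90), Aqp1 (-2.45) and Errfi1 (-2.37). It was higher in Ube2c (3.73), Prc1 (3.92), Birc5 (5.16) and Top2a (5.84). These last genes were at no more than 10.6 CPM in any normoxic P14 mouse, so the sizes of their differences rest on a group near the floor. The response at P14 differed between Col14a1+ and Col13a1+ fibroblasts, by a test of the difference, in Mmp3 (-4.47), Chodl (-3.98), Sulf2 (-3.70), Hp (-3.56), Cxcl1 (-3.31), Pcdh7 (-3.18), Inmt (2.50), Slc7a10 (2.56), Lepr (2.58), Fabp3 (2.62), Mapt (3.1) and Stmn1 (3.71). Without P14 pool 1 Chodl was no longer called, and Slc7a10 and Fabp3 were not called when either pool was left out. Slc7a10, Fabp3 and Mapt were too low in Col14a1+ fibroblasts to be tested there (medians of 0.993 to 6.92 CPM at P14), so their differences rest on Col13a1+ fibroblasts. No cause was tested for any of these.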

How the results depend on the processing

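With an equal number of 32 cells per mouse, 530 genes were called over all ages, 15 at P3, 37 at P7, 673 at P14, 84 between the responses at P14 and P3, 175, 821 and 1818 between P7 and P3, P14 and P7 and P14 and P3 in normoxia, and 442 between the fibroblast types. With the pool as a replicate block the counts were 167 at P3, 280 at P7 and 559 for the difference between P14 and P3; over all ages, at P14 and between P7 and P3 it gave 1450, 1587 and 304, and it was not run for the other comparisons. Without age as a covariate, 600 genes were called over all ages. Leaving out the mice of P14 pool 1 or 2 gave 212 or 822 genes at P14 (212 to 1323 over all mice or pools left out) and 392 or 492 between the types, and leaving out mice gave 91 to 184 at P7. Within pools the counts were 36 and 19 at P3 and 96 and 12 at P7. The P14 share difference was 2.45 points of stromal and mesothelial cells together (exact permutation adjusted p = 0.0852). It was 1.42 points of all cells, with exact permutation adjusted p = 0.06 when labels were permuted within pools. By edgeR it was 0.607 on the log2 scale (adjusted p = 0.0541), and edgeR gave -0.633 for P14 against P7 in normoxia (adjusted p = 0.0375). Signs turned for the share at P7 against P3 in hyperoxia (0.807 points of stromal and mesothelial cells together). They also turned for Ly6a at P7 against P3 in normoxia (-4.35 unthinned, -2.49 at 2000 UMIs) and hyperoxia (1.05 and 0.949). For Pi16 the sign turned at P14 against P7 in hyperoxia (-0.0913 at 2000 UMIs). The causes were not tested. DESeq2 called 1147 genes at P14, 88 at P3 and 164 at P7. Of the 85 named genes called at P14, 42 were called without pool 1, 67 without pool 2 and 85 with the block. Low counts limit Top2a and Birc5, and the fits within a P14 pool have 3 against 3 mice of that age.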

Other observations

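Over the 35 mice and 3145 genes with enough counts, the genes whose levels (log2 CPM) followed Col14a1 most closely were Ccdc80 (Pearson r = 0.837), Kdelr3 (0.797), Fam129a (0.774), Nktr (0.772), Bace2 (0.770), Vkorc1 (0.769) and Col1a1 (0.759). The mice share libraries and differ in age and oxygen, so these values are a description with no test.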
